A study of Homo sapiens with 24 samples.

Results

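The genes described here encode the cyclin-dependent kinase (CDK) inhibitors CDKN1A, CDKN1B, CDKN1C, CDKN2A, CDKN2B, CDKN2C and CDKN2D and the related phosphatase CDKN3. Every array probe that carries the name of 1 of these 8 genes was taken, whatever its signal, which gave 11 probes out of 34127 on the array, where 25992 gene names occur. A549 and H1975 are established human lung adenocarcinoma cell lines. Each line received 0.75 mg/ml Pirfenidone, an anti-fibrotic drug, or the same volume of PBS, its solvent, and was kept in culture for 6 h or 24 h. The 8 groups (A549 with PBS at 6 h, A549 with PBS at 24 h, A549 with Pirfenidone at 6 h, A549 with Pirfenidone at 24 h, and the same 4 groups of H1975) held 3 arrays each, 24 in all, every array carrying the Cy3-labeled RNA of 1 sample. Both lines are single cell lines without stroma or immune cells, and the labels do not say whether the 3 arrays of a group came from separate cultures, so the tests measure the spread between these arrays, which may be technical.

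CDK inhibitors hold back the cell cycle by binding the kinases that drive it. The Cip/Kip proteins CDKN1A (p21), CDKN1B (p27) and CDKN1C (p57) bind complexes of cyclins with several CDKs, above all CDK2. The INK4 proteins CDKN2A (p16), CDKN2B (p15), CDKN2C (p18) and CDKN2D (p19) bind CDK4 and CDK6 and keep them from cyclin D, which leaves the RB protein active and E2F target genes silent. CDKN2A also encodes the protein ARF in another reading frame. CDKN3 is a phosphatase that acts on CDK1 and CDK2, and its RNA is itself produced periodically in dividing cells. Loss of the chromosome arm 9p region that holds MTAP, CDKN2A and CDKN2B is frequent in lung cancer, and A549 is known for it.

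A total of 3 genes were covered by a pair of probes, and these pairs differ in where they bind. No annotation of hg19, the build of the array files, was used, and the probe names below rest on the positions and the known structure of the genes. For CDKN2A, the shared-exon probe at chr9:21970901-21970960 (minus strand) lies in coding sequence of p16, in an exon that the p16 and ARF transcripts have in common. The 3′-end probe at chr9:21968039-21968098 lies 2.9 kb away. For CDKN1B, the coding probe lies at chr12:12871119-12871178 and the 3′-end probe at chr12:12874940-12874999 (plus strand). For CDKN3, the brighter probe spans an intron (chr14:54878384-54882635, plus strand) and the dimmer probe lies at chr14:54866634-54866693. The other 5 genes had 1 probe each, CDKN1A at chr6:36652178-36652237 and CDKN2C at chr1:51439963-51440022 on the plus strand, and CDKN1C at chr11:2904903-2904962, CDKN2B at chr9:22008979-22009038 and CDKN2D at chr19:10677226-10677285 on the minus strand. The probes in coding sequence are shown as they stand in the array files, 5′ to 3′ and 60 bases long, because the CDKN2A probe separates the lines more than any other probe here, the CDKN1B probe is the independent reading of that gene, and the CDKN3 probes read different exons of a gene with a lower signal in treated H1975 cells at 24 h.
CDKN2A shared-exon probe: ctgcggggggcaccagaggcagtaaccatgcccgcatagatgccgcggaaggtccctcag
CDKN1B coding probe: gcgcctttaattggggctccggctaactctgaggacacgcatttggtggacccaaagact
CDKN3 brighter probe: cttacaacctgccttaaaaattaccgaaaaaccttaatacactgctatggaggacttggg
CDKN3 dimmer probe: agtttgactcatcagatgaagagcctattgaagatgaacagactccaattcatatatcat
The share of G and C was 66.7% in the CDKN2A sequence and 40% in the 3′-end probe of the same gene.

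Values are log2 signals relative to the 75th percentile of each array, called normalized log2 signal below, so a value of 0 means a probe as bright as that percentile, and levels of different probes are not compared. A call needed 2 things, a fold change of at least 2 and an adjusted p (Benjamini-Hochberg over the 23827 probes tested with limma) not above 0.05, and all 11 probes were among those tested. The share of probes that rose well above background was 62.7% to 69.5% per array, and no spot was saturated. Of 10 epithelial genes, 8 in A549 and 9 in H1975 gave such a signal on all 12 arrays of the line, and NKX2-1, the lung lineage factor, gave it on no A549 array. Of the fibroblast markers, COL3A1 and DCN were not well above background on any array of either line. The file names carry 4 dates that are not explained there, and arrays that share a date are called a run here. Each treatment and time had a fixed place on the slide, and each slide held a single line. An effect of place therefore cannot be told apart from treatment and time, nor a difference between slides from that between lines. In H1975 at 24 h, the Pirfenidone and PBS arrays of run 3 were on different slides. At 24 h, the A549 pair of replicate 3 (PBS and Pirfenidone, both of run 1) ran opposite to the other A549 pairs for several of these genes, and the A549 values of the members at 24 h are therefore given with and without it where it moved them. Whether the labels of this pair were exchanged cannot be told from the sources used here, and they were kept as given. Since RNA of whole cultures was measured, less RNA per cell and fewer cells that make it cannot be told apart.

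**Figure D1:**
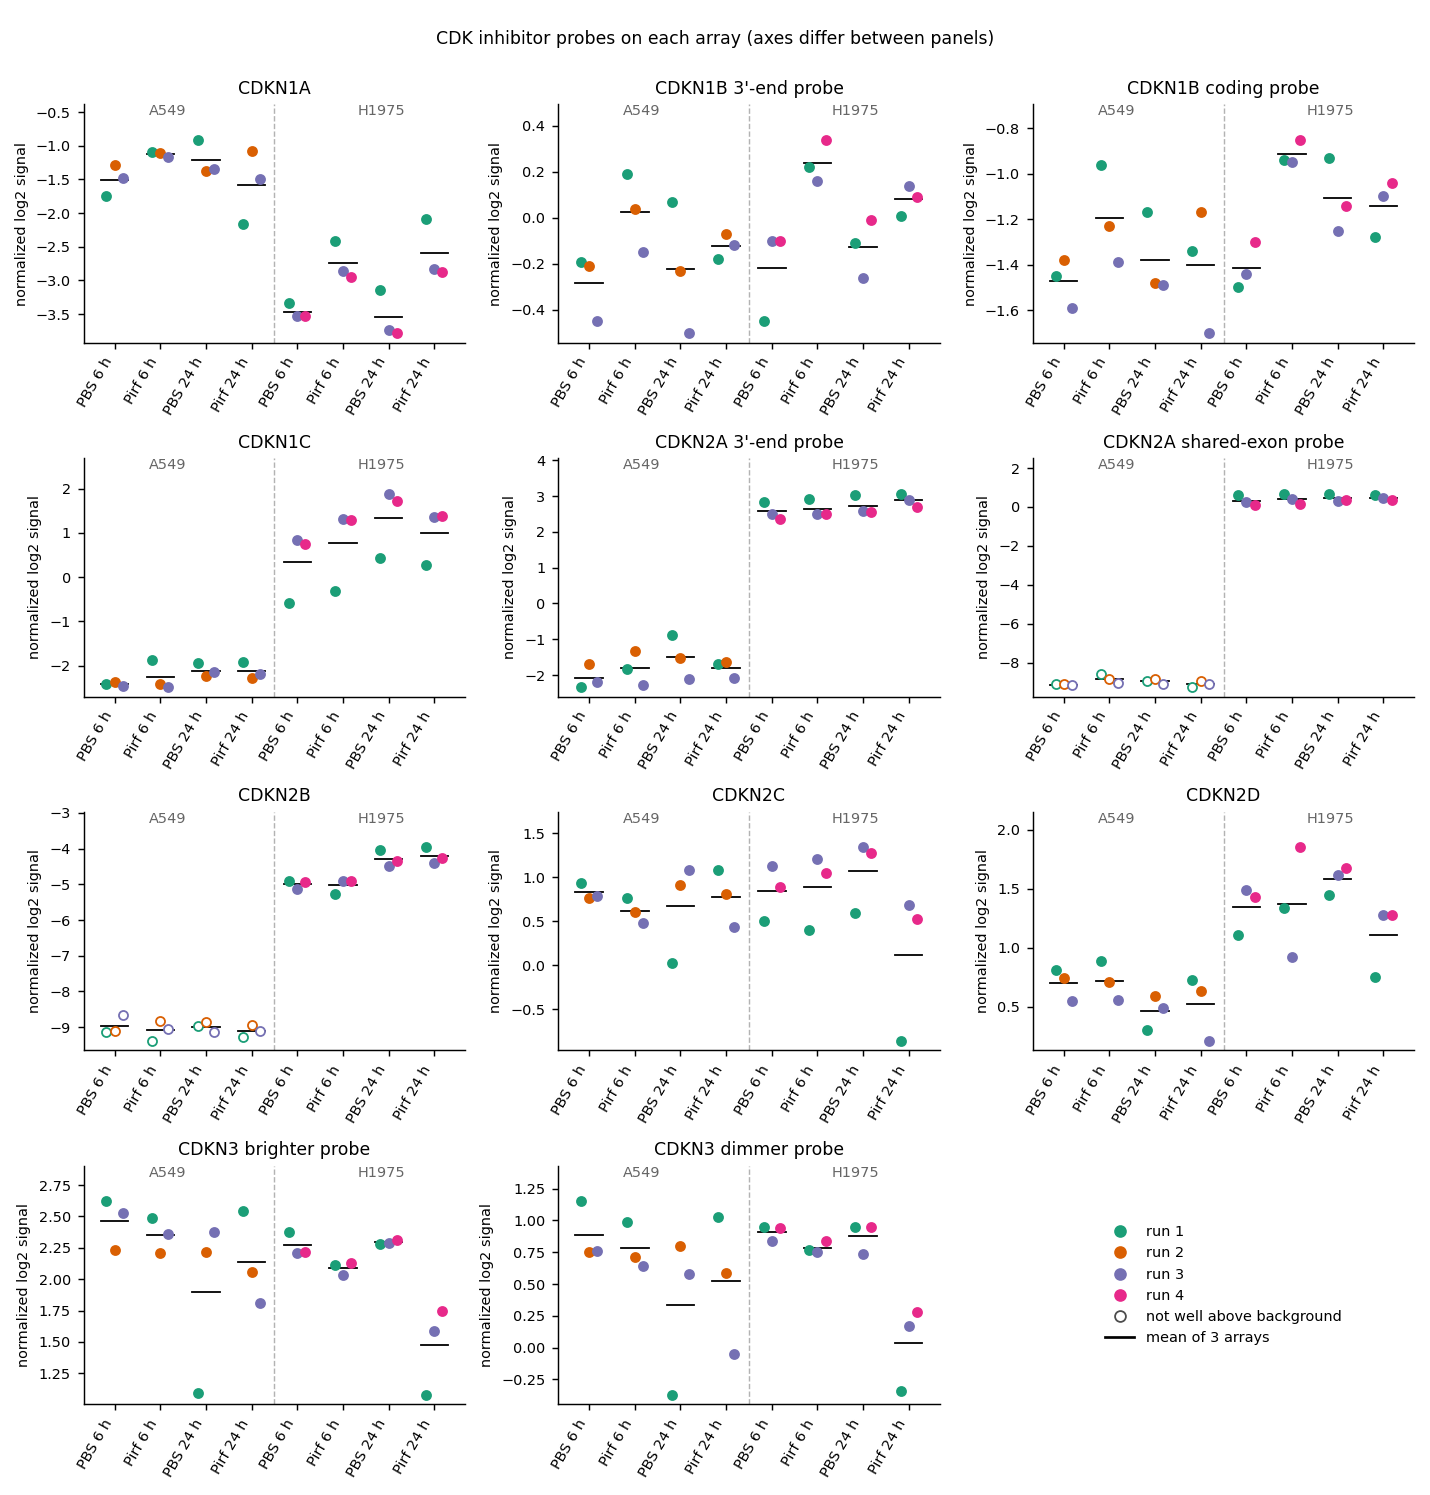
Normalized log2 signal of the 11 CDK inhibitor probes on each of the 24 arrays, by line, treatment (Pirf, Pirfenidone) and time, with 1 point per array, colors for the 4 runs and a bar for the mean of 3 arrays. The vertical axes differ between panels. Open points, seen only for the CDKN2A shared-exon probe and CDKN2B in A549, are not well above background.

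Of these genes, CDKN2A differed most between the lines. Its shared-exon probe lay between -9.24 and -8.57 on the 12 A549 arrays (median -9.05) and between 0.08 and 0.69 on the 12 H1975 arrays (median 0.40). It was well above background on none of the A549 arrays and on all 12 H1975 arrays. In PBS, H1975 cells were at 0.62, 0.28 and 0.08 at 6 h and at 0.33, 0.37 and 0.69 at 24 h, and A549 cells at -9.09, -9.16 and -9.11 at 6 h and at -8.83, -9.09 and -8.92 at 24 h. Since the A549 signals were at background, the difference is a lower bound. H1975 was at least 147-fold higher at 6 h (limma, adjusted p = 1.29e-19) and at least 146-fold higher at 24 h (adjusted p = 1.53e-19), where the A549 value of each array is the lowest signal among its probes well above background. Without the A549 pair of replicate 3 the bound at 24 h was 149-fold. The bounds hold for this background correction, since with normexp the log2 difference was 5.68 at 6 h and 5.78 at 24 h, against 7.20 and 7.19 for the bounds. The adjusted p values are those of the measured differences from background, not of the bounds. The probe entered the test through its H1975 arrays alone, so the filter favored a difference in this direction. On this probe, the A549 cells went with their description as a line that lacks CDKN2A.

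The 3′-end probe of CDKN2A did not. It was well above background on all 12 A549 arrays, at -2.33 to -0.88 (median -1.76), and on all 12 H1975 arrays, at 2.37 to 3.07 (median 2.64). The groups did not overlap, and H1975 was higher by 4.64 ± 0.28 (log2, SE) at 6 h (24.9-fold, adjusted p = 3.13e-11) and by 4.23 ± 0.28 at 24 h (18.7-fold, adjusted p = 1.29e-10). Of the A549 arrays, the PBS array of replicate 3 at 24 h was the highest at -0.88, against -1.53 and -2.11 in its group, and without that replicate pair the difference at 24 h was 4.54. Thus the probes of this gene went the same way between lines, but A549 gave a signal at the 3′ end and none above background in the shared exon. What the 3′-end probe bound in A549 was not tested.

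CDKN2B, the TGFβ-inducible INK4 gene next to CDKN2A, resembled the shared exon. Its probe was well above background on none of the 12 A549 arrays (-9.38 to -8.67, median -9.08) and on all 12 H1975 arrays, where it was dim (-5.27 to -3.97, median -4.69). H1975 was at least 3.68-fold higher in PBS at 6 h (adjusted p = 2.42e-13) and at least 5.43-fold higher at 24 h (adjusted p = 1.79e-14), or 5.52-fold without the A549 pair of replicate 3. With normexp the log2 differences were 1.02 and 1.46, against 1.88 and 2.44 for these bounds. The adjusted p values again are those of the measured differences from background, and this probe also entered the test through H1975 alone. In H1975, the PBS arrays at 6 h stood at -4.92, -5.13 and -4.93 and those at 24 h at -4.49, -4.34 and -4.03, and these groups did not overlap. The later time was higher by 0.71 ± 0.17 (95% confidence interval 0.35 to 1.07, adjusted p = 0.072), which did not pass, and the Pirfenidone arrays had the same order, at -5.03 ± 0.21 (SD, n = 3) at 6 h and -4.21 ± 0.22 at 24 h.

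The neighbors of both genes along the chromosome show at which probes the A549 signal was at background. MTAP, an enzyme of methionine salvage, had 3 probes. Distances are from the CDKN2A shared-exon probe, negative toward smaller coordinates. The first MTAP probe, at -168.1 kb, was well above background on all 12 A549 arrays and was lower in H1975 (mean of 12 arrays -2.92) than in A549 (-0.69), with a log2 difference of -2.21 at 6 h (adjusted p = 1.55e-09). The others, at -132.9 and -105.1 kb, were well above background on none of the 12 A549 arrays and on all 12 of H1975, which was at least 71.5-fold and 82.2-fold higher at 6 h and at least 63.6-fold and 78-fold higher at 24 h. On the far side of CDKN2B, which lies at 38.1 kb, an unnamed probe at 184.8 kb gave a signal well above background on every array of both lines, and so did DMRTA1 at 481 kb, a gene of the DMRT family (-4.11 on average in A549 and -4.23 in H1975, adjusted p = 0.812 at 6 h and 0.483 at 24 h). Between the first MTAP probe and the probe at 150.1 kb, the A549 arrays were thus at background at all probes except the 3′-end probe of CDKN2A. Farther out, from -893.4 to -549.9 kb, 13 more probes, 12 of them of interferon genes, were well above background on no A549 array. H1975 was also on none for 10 of these and on 1 array for 2, and IFNA4 at -783.9 kb was above background on 10 H1975 arrays. KLHL9, within this stretch at -639.8 kb, was well above background on every array of both lines. So were MIR31HG at -516.2 kb and IFNE at -489.8 kb. The antisense transcript CDKN2B-AS1 (150.1 kb) was well above background on 6 of 12 A549 and 9 of 12 H1975 arrays, and CDKN2A-AS1 (-3.4 kb) on 0 of 12 and 6 of 12.

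**Figure D2:**
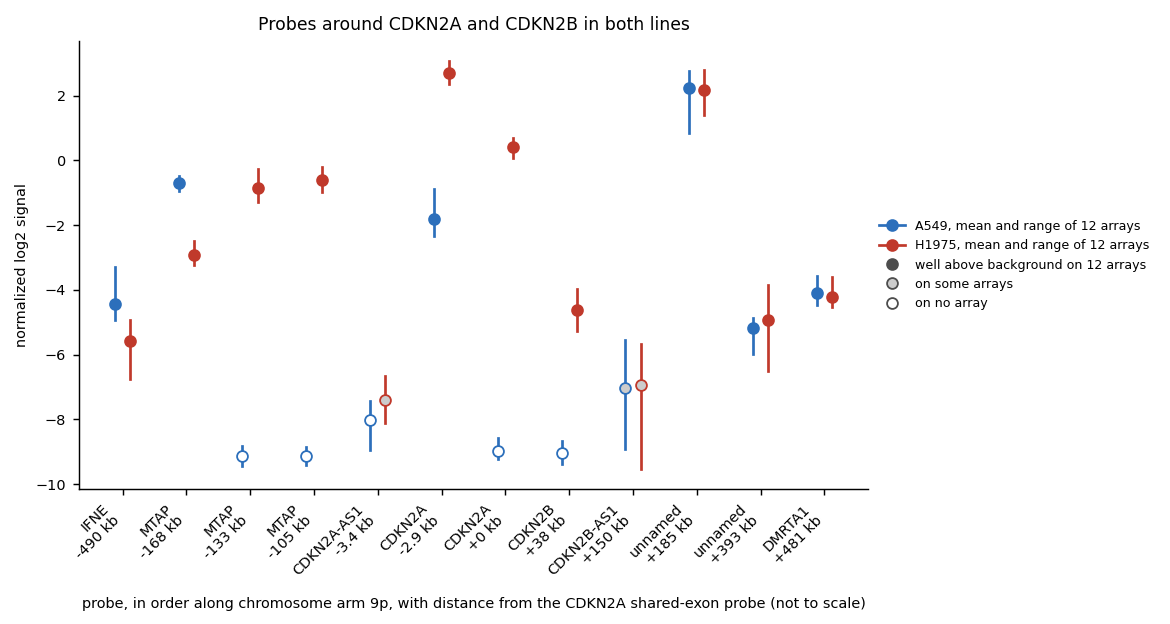
Normalized log2 signal (mean and range of the 12 arrays of a line) of the probes from IFNE to DMRTA1, in chromosome order and not to scale, with distances from the CDKN2A shared-exon probe in kb. Filled points mark probes well above background on every array of the line, gray points those on some arrays and open points those on none. A549 is at background at the MTAP probes at -132.9 and -105.1 kb, the CDKN2A shared-exon probe and CDKN2B, and above it at the first MTAP probe, the CDKN2A 3′-end probe and DMRTA1.

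Of the Cip/Kip genes, CDKN1A and CDKN1C separated the lines in opposite directions. CDKN1A lay between -2.17 and -0.91 in A549 (median -1.31) and between -3.78 and -2.09 in H1975 (median -3.04). In PBS, H1975 was lower, with log2 differences of -1.96 ± 0.25 (SE) at 6 h and -2.34 ± 0.25 at 24 h, which is 0.257 and 0.197 times the A549 signal (adjusted p = 1.98e-06 and 1.90e-07). None of the PBS arrays of the lines overlapped, and in runs 1 and 3, which held both lines, the difference was -1.59 and -2.05 at 6 h and -2.22 and -2.39 at 24 h. CDKN1C, an imprinted gene that restrains growth, lay between -2.48 and -1.88 in A549 and between -0.58 and 1.89 in H1975. It was higher in H1975 by 2.75 ± 0.44 at 6 h (6.71-fold, adjusted p = 2.88e-05) and by 3.45 ± 0.44 at 24 h (adjusted p = 1.78e-06). Within H1975, the run 1 array was the lowest of every group, at -0.58, 0.43, -0.31 and 0.28 against 0.76 to 1.89 on the other arrays, and in that run the line difference was 1.84 at 6 h and 2.38 at 24 h against 3.27 and 4.03 in run 3.

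CDKN2D was moderately higher in H1975, and CDKN1B, CDKN2C and CDKN3 could not be separated between the lines. CDKN2D stood at 1.58 ± 0.12 (SD, n = 3) in H1975 and 0.46 ± 0.15 in A549 with PBS at 24 h, a difference of 1.12 ± 0.20 (SE, adjusted p = 8.98e-05). At 6 h the difference was 0.65 ± 0.20 (adjusted p = 0.010), below the fold-change limit, and runs 1 and 3 gave 0.31 and 0.94. For CDKN1B, the best known substrate of SKP2 among these proteins, the 3′-end probe differed by 0.07 (95% confidence interval -0.22 to 0.36) at 6 h and 0.09 (-0.19 to 0.38) at 24 h, and the coding probe by 0.06 (-0.24 to 0.36) and 0.27 (-0.02 to 0.57). Without the A549 pair of replicate 3 the values at 24 h were 0.24 and 0.38, the latter with an adjusted p of 0.0458 and below the fold-change limit. CDKN2C differed by 0.01 (-0.72 to 0.74) and 0.40 (-0.33 to 1.12), the latter being 0.08 without that pair. The brighter CDKN3 probe differed by -0.19 (-0.72 to 0.34) at 6 h and 0.40 (-0.13 to 0.93) at 24 h, where the value without the A549 pair of replicate 3 was -0.01. With PBS at 6 h, the dimmer CDKN3 probe stood at 0.91 ± 0.06 (SD, n = 3) in H1975 and 0.89 ± 0.23 in A549. At 24 h it stood at 0.88 ± 0.12 and 0.34 ± 0.62, and the difference without that pair was 0.19. The intervals given here do not show that the lines were alike, in particular for CDKN2C.

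Altogether, 5 of the 11 probes were called between the lines at 6 h and 6 at 24 h, against 32.4% and 32.9% of all probes tested, so the share of members called was not far from that of the array. Among the 9 member probes well above background on all 24 arrays, 3 and 4 were called, where 4604 and 4679 of 18835 such probes were. The groups of 6 member probes did not overlap at either time (66.3% and 63.7% of all probes). The median difference of the members was 0.07 at 6 h and 0.54 at 24 h, beside 0.06 and 0.08 for all probes, with the A549 pair of replicate 3 included. Without the A549 pair of replicate 3, the 24 h differences were -2.19 for CDKN1A, 3.53 for CDKN1C, 1.04 for CDKN2D and 4.54 for the CDKN2A 3′-end probe, all of them called.

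Among the kinases and cyclins that the INK4 proteins act on, CDK6 was lower in H1975 with PBS, at log2 differences of -1.59 at 6 h and -1.48 at 24 h (adjusted p = 8.86e-05 and 0.000185), and so was CCND3, at -1.98 and -1.86 (adjusted p = 1.41e-06 and 2.99e-06), where 15.3% and 14.9% of all probes were called lower. CDK4 differed by 0.30 and 0.36, within the fold-change limit. RB1, through which the INK4 proteins act, was also lower, at -1.35 and -1.16 (adjusted p = 0.000461 and 0.00182).

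After Pirfenidone, none of the 11 probes was called in any of the 4 comparisons with limma. Of all probes, 0.176% (6 h) and 0.0126% (24 h) were called in A549 and 0.491% (6 h) and 1.89% (24 h) in H1975. At an unadjusted p under 0.05, the number of member probes was 1, 0, 3 and 5 in the same order, against 6.01%, 0.953%, 11% and 22% of all probes. The methods' t-test, run here with pairs of the same run, a pairing that the methods do not state for the arrays, called no member. Unadjusted, it called 84, 29, 215 and 524 of all probes, and with adjustment 0 in each comparison, so that with adjustment no member could be called. The groups of 4, 0, 5 and 5 member probes did not overlap, against 15.3%, 1.82%, 17.8% and 31.9% of all probes. The median change of the members was 0.15, -0.02, 0.07 and -0.03, beside -0.01, -0.02, 0.05 and 0.02 over all probes. Single members are described below with the interval of each difference.

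**Figure D3:**
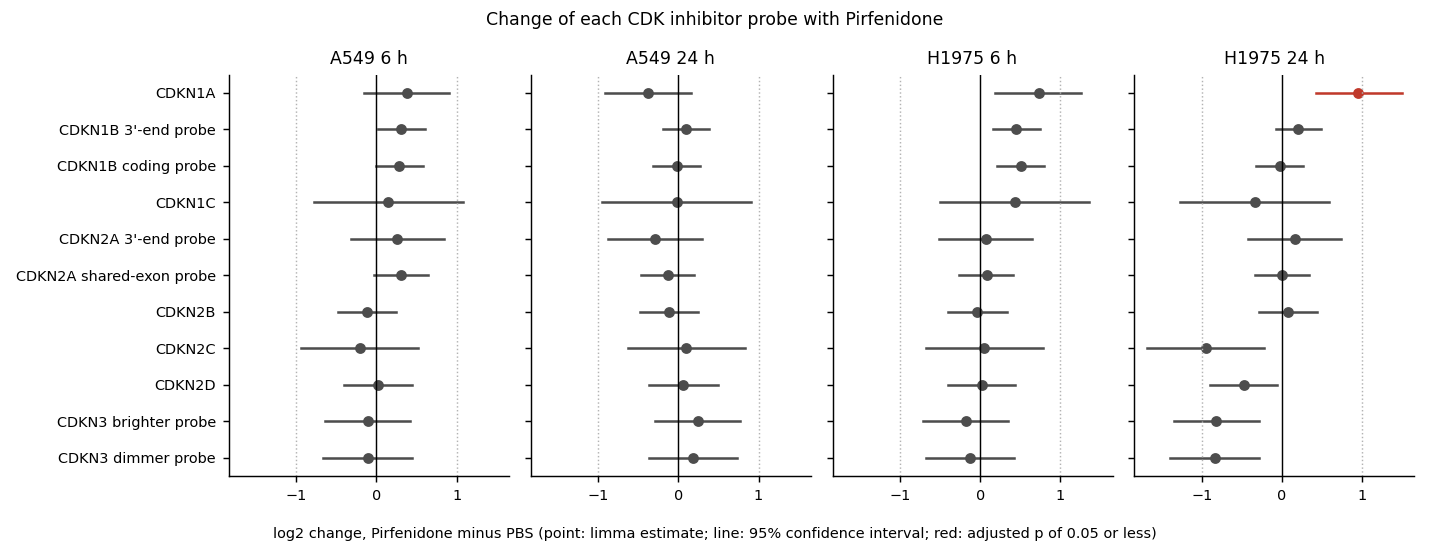
Log2 change with Pirfenidone (Pirfenidone minus PBS, limma estimate and 95% confidence interval) of the 11 CDK inhibitor probes in A549 and H1975 at 6 h and 24 h. Dotted lines mark a fold change of 2. CDKN1A in H1975 at 24 h, drawn in red at 0.95, is the only point with an adjusted p of 0.05 or less.

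CDKN1A came closest to a call. In H1975 at 24 h, the PBS arrays stood at -3.73, -3.78 and -3.14 and the Pirfenidone arrays at -2.83, -2.88 and -2.09, and all treated arrays were above all PBS arrays. The difference of 0.95 ± 0.25 (1.94-fold, 95% confidence interval 0.42 to 1.49) had an adjusted p of 0.0326 and fell just below the 2-fold limit, where 6.26% of all probes passed without that limit. The runs gave similar values, 1.05 in run 1, 0.90 in run 3 and 0.91 in run 4. Single arrays moved the value from 0.70 to 1.16. It was called without replicate 3 of PBS (1.16, adjusted p = 0.0344) or replicate 1 (1.07, adjusted p = 0.042) or 2 (1.09, adjusted p = 0.0375) of Pirfenidone, and was 0.70 (adjusted p = 0.201) without replicate 3 of Pirfenidone, 0.86 (adjusted p = 0.120) without replicate 1 of PBS and 0.84 (adjusted p = 0.110) without replicate 2 of PBS. At 6 h, H1975 arrays stood at -3.34, -3.53 and -3.53 with PBS and -2.86, -2.95 and -2.42 with Pirfenidone, again without overlap. That difference was 0.73 ± 0.25 (95% confidence interval 0.19 to 1.26, adjusted p = 0.227), with 0.92, 0.67 and 0.59 in runs 1, 3 and 4.

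In A549, CDKN1A had no common direction. At 6 h the PBS arrays were at -1.29, -1.48 and -1.75 and the Pirfenidone arrays at -1.11, -1.17 and -1.09, all higher, with a difference of 0.38 ± 0.25 (95% confidence interval -0.15 to 0.91). At 24 h the PBS arrays were at -1.37, -1.34 and -0.91 and the Pirfenidone arrays at -1.08, -1.50 and -2.17, and the groups overlapped. The difference at 24 h was -0.38 ± 0.25 (-0.91 to 0.16) and 0.07 without the pair of replicate 3, in which it was -1.26. The drug change in H1975 exceeded that in A549 by 0.35 ± 0.36 at 6 h and by 1.33 (0.58 to 2.08, adjusted p = 0.132) at 24 h, the latter being 0.89 (adjusted p = 0.571) without that pair. The difference between the lines was not called, except with the slide as a random block (adjusted p = 0.0214). By mean level, the lowest groups were H1975 with PBS at 24 h (-3.55) and at 6 h (-3.47), whose arrays overlapped, then H1975 with Pirfenidone at 6 h (-2.74) and at 24 h (-2.60), which overlapped as well, and all 4 A549 groups followed between -1.58 and -1.12. The highest treated H1975 array (-2.09) lay above the lowest A549 array (-2.17), the Pirfenidone array of replicate 3 at 24 h, and no other A549 array was below -1.75.

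CDKN1B was slightly higher at 6 h with both probes, below the limits of a call. For the 3′-end probe in H1975, PBS arrays stood at -0.45, -0.10 and -0.10 and Pirfenidone arrays at 0.16, 0.34 and 0.22. For the coding probe, they stood at -1.50, -1.44 and -1.30 and at -0.95, -0.85 and -0.94. Neither pair of groups overlapped, and the differences were 0.45 ± 0.14 (adjusted p = 0.135) and 0.51 ± 0.14 (adjusted p = 0.0958). In A549 at 6 h the differences were 0.31 ± 0.14 and 0.28 ± 0.14 (adjusted p = 0.745 and 0.875), positive within each of runs 1, 2 and 3 with both probes. At 24 h the probes gave 0.20 (95% confidence interval -0.08 to 0.49) and -0.03 (-0.33 to 0.26) in H1975 and 0.10 (-0.19 to 0.38) and -0.02 (-0.32 to 0.27) in A549, where the values without the pair of replicate 3 were 0.27 and 0.05. CDKN1C differed by 0.43 (-0.50 to 1.36) and -0.34 (-1.27 to 0.59) in H1975 at 6 h and 24 h and by 0.15 (-0.78 to 1.08) and -0.02 (-0.95 to 0.91) in A549, intervals that leave room for 2-fold changes.

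CDKN2C, CDKN2D and CDKN3 were lower in H1975 after 24 h of Pirfenidone, none of them far enough for a call. For CDKN3, the brighter probe stood at 2.29, 2.31 and 2.28 with PBS and at 1.59, 1.75 and 1.08 with Pirfenidone. The dimmer probe stood at 0.74, 0.95 and 0.95 and at 0.17, 0.28 and -0.34. Both probes had all treated arrays below all PBS arrays, and the differences of -0.82 ± 0.25 and -0.84 ± 0.26 (adjusted p = 0.0602 and 0.0617) were alike although the sequences lie in different exons. By run, the brighter probe gave -1.20, -0.70 and -0.56 in runs 1, 3 and 4. At 6 h the differences were -0.18 (95% confidence interval -0.71 to 0.35) and -0.13 (-0.68 to 0.42).

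For CDKN2C in H1975 at 24 h, the PBS arrays stood at 1.34, 1.28 and 0.59 and the Pirfenidone arrays at 0.68, 0.53 and -0.86. The groups overlapped, since the run 1 PBS array (0.59) lay below a treated array, but the treated array was the lower in each run, with differences of -1.45 in run 1, -0.66 in run 3 and -0.75 in run 4. The difference was -0.95 ± 0.35 (95% confidence interval -1.68 to -0.22, adjusted p = 0.110), and with the slide as a random block it was -1.01 (adjusted p = 0.0171) and was called. Without the Pirfenidone array of replicate 3 it was -0.47 (adjusted p = 0.488). CDKN2D went from 1.62, 1.68 and 1.45 to 1.28, 1.28 and 0.75 without overlap, a difference of -0.48 ± 0.20 (-0.90 to -0.06, adjusted p = 0.168). At 6 h their differences were 0.05 (-0.68 to 0.78) and 0.02 (-0.40 to 0.44).

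In A549 at 24 h, these 3 genes depended on the pair of replicate 3. The brighter CDKN3 probe stood at 2.22, 2.38 and 1.09 with PBS and at 2.06, 1.81 and 2.54 with Pirfenidone, so that the PBS array of replicate 3 was the lowest and the treated array of replicate 3 the highest. The difference was 0.24 (95% confidence interval -0.29 to 0.77) with that pair and -0.37 without it (adjusted p = 0.611), and that of the dimmer probe 0.18 and -0.42. CDKN2C turned likewise, from 0.10 to -0.37, and CDKN2D from 0.06 to -0.12, none of which passed. For the brighter CDKN3 probe, the drug change of H1975 minus that of A549 at 24 h was -1.06 (adjusted p = 0.215), and -0.45 without the pair (adjusted p = 0.775).

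**Figure D4:**
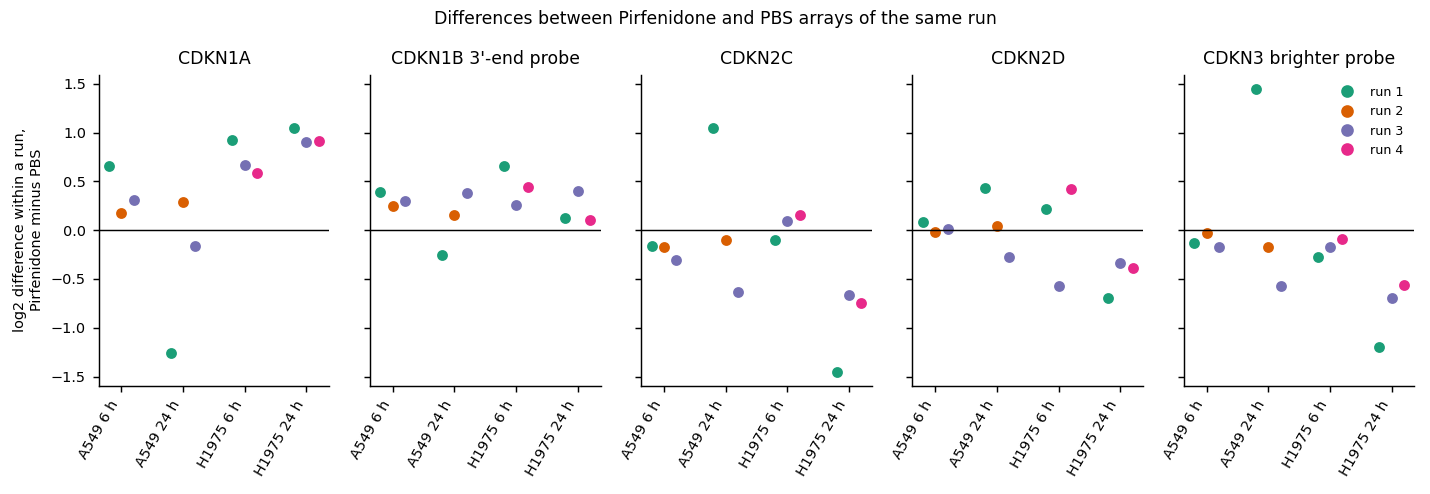
Log2 difference between the Pirfenidone and PBS array of the same run for CDKN1A, the CDKN1B 3′-end probe, CDKN2C, CDKN2D and the brighter CDKN3 probe, with 1 point per run. In H1975 at 24 h all runs are above 0 for CDKN1A and below 0 for CDKN2C, CDKN2D and CDKN3, whereas run 1 of A549 at 24 h lies opposite to the H1975 points, at -1.26 for CDKN1A and 1.45 for CDKN3.

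For the 9p genes, no drug difference passed in H1975, the line in which all 3 probes gave a signal. The CDKN2A shared-exon probe differed by 0.08 (95% confidence interval -0.26 to 0.41) at 6 h and by -0.00 (-0.34 to 0.34) at 24 h, so a 2-fold change lay outside both intervals. The 3′-end probe differed by 0.07 (-0.51 to 0.65) and 0.16 (-0.42 to 0.74), and CDKN2B by -0.04 (-0.40 to 0.33) and 0.07 (-0.29 to 0.44). With normexp, which shifted the median of all probes at 6 h to 0.29, the value of CDKN2B at 6 h was 0.83 (adjusted p = 0.150). In A549 the 3′-end probe differed by 0.26 (-0.32 to 0.84) and -0.29 (-0.87 to 0.29, or -0.03 without the pair of replicate 3), and the shared-exon and CDKN2B probes were at background.

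Neither the time in culture nor the interplay of line, time and drug gave a call among the members. With PBS, 24 h against 6 h had 0 of 11 probes called with limma in A549 (0.109% of all probes) and 0 in H1975 (0.315%), and the groups of 2 member probes in each line did not overlap (15% and 18.9% of all probes). An unadjusted p under 0.05 was reached by 1 member in A549 (8.49% of all probes) and 3 in H1975 (10.6%). The member in A549 was the brighter CDKN3 probe at -0.57, or -0.16 without the pair of replicate 3. The largest of these differences was that of CDKN1C in H1975, from -0.58, 0.83 and 0.76 to 1.89, 1.72 and 0.43, a difference of 1.01 ± 0.44 (adjusted p = 0.413), which was called with the slide as a random block (1.04, adjusted p = 0.025). The drug change differed between lines for 0 probes at 6 h (0.0336% of all probes) and 0 at 24 h (0.193%), with 0 and 4 members at an unadjusted p under 0.05 (2.63% and 12.2% of all probes). Between 6 h and 24 h it differed for 0 probes in A549 (0.0294%) and 0 in H1975 (0.0042%), with 1 member each at an unadjusted p under 0.05 (3.04% and 5.86%).

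Among the partners of these genes, drug changes were called in H1975 at 24 h, where 1% of all probes were called lower and 0.89% higher. Of 10 S phase and G2/M cyclins, kinases and regulators, 6 fell and none rose, with a median of -1.07. For these 10 genes the drug change of H1975 minus that of A549 had a median of -1.18, and none passed. This median includes the A549 pair of replicate 3, and values of list genes without that pair were not computed. CCNA2, the S phase cyclin, fell by 1.20 (adjusted p = 0.0298), CCNB1, the mitotic cyclin, fell by 1.18 (adjusted p = 0.0388), and PKMYT1, an inhibitory CDK1 kinase, fell by 1.33 (adjusted p = 0.00444). CCNB2, CCNF and CDC25C fell by 1.06, 1.23 and 1.08. CDK1 itself was at -0.95 (adjusted p = 0.0265) and CDK2 at -0.98 (adjusted p = 0.0039), both just within the fold-change limit. Of 11 G1/S cyclins, kinases and phosphatases tested, CCNE2, a cyclin that activates CDK2, fell by 1.09 (adjusted p = 0.00768) and CDC25A, the phosphatase that activates it, fell by 1.04 (adjusted p = 0.0078), while CDK4 was at -0.37 and CDK6 at -0.63, which did not pass. Of 11 RB pathway genes, E2F2 fell by 1.38 (adjusted p = 0.00588). None of the genes on these 3 lists was called in A549 at 6 h or 24 h or in H1975 at 6 h, where 0.0588%, 0.00839% and 0.0923% of all probes were called lower.

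Few of the genes that act on CDK inhibitor genes or proteins were called after Pirfenidone. None of 10 genes of the turnover machinery was called in any drug comparison, with SKP2, the ubiquitin ligase subunit for CDKN1B, at -0.49 (adjusted p = 0.240) and its cofactor CKS1B at -0.76 (adjusted p = 0.0105, within the fold-change limit) in H1975 at 24 h. Of 22 transcription factors tested, 6 were called higher and 2 lower in H1975 than in A549 with PBS at each time. Of all probes, 32.4% (6 h) and 32.9% (24 h) were called between the lines. After Pirfenidone, 1 of the 22 was called. DDIT3, a factor of the stress response, rose by 2.19 in A549 at 6 h (adjusted p = 0.0233), by 2.08 in H1975 at 6 h (adjusted p = 0.0148) and by 1.71 in H1975 at 24 h (adjusted p = 0.0221), where 0.118%, 0.399% and 0.89% of all probes were called higher. In A549 at 24 h, with the pair of replicate 3 included, DDIT3 was at -0.13. The RNA of MYC, which represses CDKN1A and CDKN2B, was at 0.29 (adjusted p = 0.567) in H1975 at 24 h.

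The genes whose signal followed each member most closely were found by Pearson's r over the 24 arrays after the mean of each line was removed, among 14594 genes, as a description of arrays that share runs and scaling. CDKN3 was followed most closely by PTTG3P, PTTG1 and CCNB1, each with an r of 0.97, where PTTG3P and PTTG1 are near-identical copies that their probes may not separate. CDKN2C was followed by NRGN (0.95), RPA1 (0.94) and RNF26 (0.94), and CDKN1C by TFEB (0.93), AKR1C3 (0.92) and NDRG2 (0.92). For CDKN1A the closest were HEY1 (0.90), LINC00662 (0.90) and RNF13 (0.89), and for CDKN1B SMPDL3A (0.90), SLC38A2 (0.88) and ZYG11B (0.87). The values for CDKN2A were 0.88 (FLVCR1-AS1), for CDKN2B 0.84 (ZNF436-AS1) and for CDKN2D 0.82 (SLX4), where CDKN2B was at background on the 12 A549 arrays. The probe pairs of 1 gene gave 0.95 for CDKN3, 0.78 for CDKN1B and 0.54 for CDKN2A, whose shared-exon probe was at background on the A549 arrays.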

How the data were processed

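RNA of the A549 and H1975 samples was hybridized to one-color Agilent arrays. The deposited scanner files hold spot intensities from Agilent Feature Extraction (version 11.5.1.1), background-corrected by the authors' software and not normalized between arrays. Log2 values processed by the authors were deposited too and served as an alternative. Groups and replicate numbers came from the labels.

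From the log2 of each processed signal, the array's 75th percentile over 43118 spots, controls excluded, was subtracted. Outlier spots (246 to 651 per array) were left out and spots of a probe averaged. Probes counted as well above background where 0.5 or more of their spots did. The 23827 probes that did so on each of the 3 arrays of 1 group or more entered 1 limma fit of 8 groups (limma 3.58.1, R 4.3.3, lmFit and eBayes, two-sided, 16 residual degrees of freedom) with 12 comparisons. Benjamini-Hochberg adjustment took the place of the study's permutation-based family-wise control, which 3 against 3 arrays cannot pass. On simulated arrays, 88.5% to 92% of 200 probes changed by a log2 of 2 were recovered in the drug comparisons, with 1 to 4 false calls. Smaller changes, such as those of the members with the drug, were not simulated, and the simulated noise was independent between arrays. The number of arrays limits precision.

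All probes of the 8 genes are given. Of a gene with several probes on a list, the brightest was used, and list genes are named where called or where they are a partner or neighbor of a member. The members and lists were chosen with earlier results of these data known. The results of 1 list and of 1 regulator are not reported here. Probe positions are those of the array files (hg19). Accessions of all 11 probes matched the RefSeq table of GRCh38.p14. Neighboring probes within 1.5 Mb of CDKN2A were examined. Alternatives were normexp background correction (offset 50), quantile normalization, the authors' values, other filters, and replicate, slide or run as a block. Further ones were only the arrays compared, an ordinary paired t-test, no fold-change limit, Holm adjustment and arrays left out.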

Additional observations from a re-analysis of the deposited data

How the results depend on the processing

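Of the 38 other settings, none reversed a called value. The number of called members in H1975 at 24 h went from 0 to 1 with the slide as a random block (CDKN2C) and with no fold-change limit (CDKN1A), and lay between 0 and 1 when 1 array was left out (CDKN1A). With the slide as a random block, 1 member was also called for H1975 with PBS at 24 h against 6 h (CDKN1C) and 1 for the drug change of H1975 against A549 at 24 h (CDKN1A, 1.33, adjusted p = 0.0214). When a signal well above background was required on all 24 arrays, there were 9 member probes and 3 calls between the lines at 6 h in place of 5, since the CDKN2A shared-exon probe and CDKN2B dropped out by construction. With Holm adjustment, CDKN1C at 6 h (2.75, adjusted p = 0.127) and CDKN2D at 24 h (1.12, adjusted p = 0.433) were not called between the lines. The adjusted p of some drug changes in H1975 depended on the setting. At 6 h the lowest was 0.0343 for CDKN1A and 0.0114 and 0.00736 for the CDKN1B 3′-end and coding probes. At 24 h it was 0.00224 and 0.00584 for the brighter and dimmer CDKN3 probes. All of these were above 0.05 in the main fit, and no setting called them. Normexp shifted the median of all probes in H1975 at 6 h to 0.29 and lowered the line difference at 6 h to 5.68 for the CDKN2A shared-exon probe and 1.02 for CDKN2B; the cause was not tested.

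With the replicate number as a block, the line comparison had 5 called members at 6 h and 6 at 24 h and every other comparison 0, as without the replicate block. Arrays of the same number did not deviate together throughout (r from -0.68 to 0.72), so the numbers were not taken to pair the samples. Pirfenidone and PBS arrays of the same run did so except in A549 at 24 h (r from -0.10 to 0.39 there and from 0.46 to 0.82 otherwise), and with run as a block the line comparison again had 5 and 6 called members and every other comparison 0. Over all probes, counts of called probes moved by more than 1.5 times in some settings; with only the arrays compared, 143 of 23827 were called in H1975 at 24 h in place of 451, and 698 with the slide as a random block. Where A549 was at background, log2 differences such as those under normexp are against background and measure no A549 level.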
